A study of Mus musculus with 48 samples.

Results

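The cytosolic ribosomal protein genes encode the protein part of the ribosome that works in the cytoplasm. They were taken from the deposited tables by symbol (Rpl or Rps followed by a number, with Rpsa, Rplp0, Rplp1 and Rplp2), leaving out the Rps6k kinases and pseudogene names, and were kept in a table where their mean normalized read count was at least 10. Of 24421 listed genes, 84 carried such a symbol and 77 passed in at least 1 of the 6 tables, 45 of the large ribosomal subunit and 32 of the small subunit. In 5 tables the same 76 genes passed, and in the developmental cortex table Rps4l passed as well, with a mean of 10.4. Rps4l lay just outside the minimum in hippocampus (7.01) and olfactory bulb (6.81), and the next lowest member in the developmental cortex table was Rpl7l1 at 57.1.

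The 48 libraries were bulk RNA-seq of mouse cells labelled astrocyte, the star-shaped glia that support and shape synapses. In the developmental groups, cells were taken at postnatal day 1, 7 and 14 (P1, P7 and P14) from cortex (3, 3 and 4 libraries), hippocampus (3 at each age) and olfactory bulb (3 at each age), with no genotype or treatment in the labels. At P28, Gabbr1 control and Gabbr1 conditional knockout (cKO) libraries were made from cortex (4 and 4), hippocampus (2 and 4) and olfactory bulb (3 and 3). Gabbr1 codes for 1 of the chains of the metabotropic receptor for GABA, the main inhibitory transmitter of the brain. The labels give tamoxifen for the controls and the cKO alike in hippocampus, in olfactory bulb, and in the second round of cortex libraries (2 control, 1 cKO). They give no treatment for the first round of cortex libraries (2 control, 3 cKO). The mouse strain, the Cre driver and whether libraries came from separate animals are not given in the sources used here, so p-values measure only the spread between these libraries, which may be technical.

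Each ribosome carries a single copy of nearly every ribosomal protein, and cells keep the output of these genes matched to each other and to the supply of ribosomal RNA. Their messenger RNAs start with a run of pyrimidines, called a 5' terminal oligopyrimidine (TOP) tract, which puts their translation under the control of the growth kinase complex mTORC1, while MYC proteins drive their transcription. Growing and dividing cells make many ribosomes, and a few members have close paralogs, such as Rps27l beside Rps27 or Rpl22l1 beside Rpl22, whose expression differs between tissues.

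Promoter sequences from RefSeq (GRCm38.p6) were found for 57 of the 77 members. Shown here are the 60 bases from 40 before to 20 after the annotated start, 5' to 3' on the gene's own strand, for 8 members chosen after the sequences and values were seen. Rps6 stands as a window without the motifs, Rps10 and Rpl35 as windows that hold them, Rps15a and Rps26 as members with large falls, and Rps27l, Rpl22l1 and Rpl7l1 as the paralogs described later. Capitals mark any of 3 motifs: the pyrimidine runs CTCTTTC and CTTCC on the sense strand, and CCGGAAG, a core bound by ETS-family factors, on either strand.
Rps6 (chr4:86857348-86857407, minus strand): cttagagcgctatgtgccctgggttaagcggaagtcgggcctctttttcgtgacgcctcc
Rps10 (chr17:27635225-27635284, minus strand): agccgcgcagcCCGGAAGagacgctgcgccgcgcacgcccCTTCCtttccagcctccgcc
Rps15a (chr7:118116128-118116187, minus strand): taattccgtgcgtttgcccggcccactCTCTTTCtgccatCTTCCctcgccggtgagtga
Rps26 (chr10:128626487-128626546, minus strand): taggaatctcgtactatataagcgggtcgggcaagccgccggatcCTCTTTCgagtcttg
Rpl35 (chr2:39005112-39005171, minus strand): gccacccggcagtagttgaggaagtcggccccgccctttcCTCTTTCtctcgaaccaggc
Rps27l (chr9:66946046-66946105, plus strand): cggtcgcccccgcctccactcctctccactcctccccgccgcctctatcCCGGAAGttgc
Rpl22l1 (chr3:28805468-28805527, plus strand): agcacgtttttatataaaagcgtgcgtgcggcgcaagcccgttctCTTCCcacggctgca
Rpl7l1 (chr17:46782637-46782696, minus strand): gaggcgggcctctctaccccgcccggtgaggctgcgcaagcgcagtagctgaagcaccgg

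CTCTTTC stood in 6 of the 57 member promoters (10.5%) and in 0.744% of the 10083 promoters of genes tested in any table. CTTCC stood in 16 of 57 (28.1%) against 15.0%, and CCGGAAG in 11 of 57 (19.3%) against 7.99%. A CTTCC match can overlap the reverse complement of CCGGAAG. At least 1 of the pyrimidine motifs was present in 21 of 57 member windows (36.8%) and in 15.6% of the tested genes' windows. The motifs were chosen after the sequences had been read, and a match is only a description of these letters. In the windows shown, Rpl7l1 and Rps6 held none of the 3 motifs. Rps6 did have a longer pyrimidine run from its annotated start, which these exact strings miss. The motif shares are thus not shares of TOP tracts. Rps27l held CCGGAAG within the 20 bases after its annotated start.

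Gene reads per library ranged from 1773226 to 15008466, and the unit throughout is reads divided by 1 scaling factor per library, called normalized reads. Depth differed with age. Cortex had 14070691 to 14513455 reads at P1, 4828515 to 7850503 at P7 and 7838934 to 15008466 at P14. Hippocampus had 5098757 to 8986015 at P1 and 2539583 to 4248087 at P14. Olfactory bulb had 5473837 to 9062118 and 1773226 to 2669394. Some counts on reads thinned to 1 depth are given at the end. Summed over 12 astrocyte markers, levels were 23751 to 31273 at P1 and 523907 to 580490 at P14 in cortex, 14566 to 17078 and then 446470 to 479859 in hippocampus, while olfactory bulb had 5786 to 7971 and 146442 to 161784. The sums of 12 neuron markers went the other way, from 7620 to 10798 at P1 to 290 to 551 at P14 in cortex. For hippocampus they were 6490 to 8472 and then 450 to 644, and for olfactory bulb 15194 to 18587 and then 2019 to 3188. At P1 in olfactory bulb the neuron sum was thus above the astrocyte sum in every library (in reads not divided by gene length), against the label. The 4 hemoglobin genes were at 0 in every group, but the remaining blood marker, Alas2, had reads. It stood at 13.3 to 39.5 in cortex at P1 and 5.81 to 46.2 in hippocampus P28 cKO. The zeros are thus not taken as a measure of blood, and their source was not tested. Reads of Rn45s, the ribosomal RNA precursor, made up 13.7% to 38.05% of gene reads, except in hippocampus P28 cKO replicate 2 (0.594%) and olfactory bulb P28 control replicate 2 (0.476%), which stood apart in the members as well. Gabbr1 in cortex ran from 927 to 1930 in the P28 controls and from 89.8 to 211 in the cKO. Hippocampus had 779.8 to 824 against 152 to 379.9 and olfactory bulb 184 to 318 against 63.6 to 99.5, with no overlap in any region.

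The ribosomal protein genes together took up a falling share of the transcriptome as the cells matured. In cortex the members held 2.79% ± 0.0984 (SD, n = 3) of all gene reads at P1, 1.26% ± 0.0966 (n = 3) at P7 and 0.963% ± 0.0399 (n = 4) at P14. In hippocampus the shares were 1.55% ± 0.256, 0.960% ± 0.0482 and 0.726% ± 0.0456 (n = 3 each). In olfactory bulb they were 1.43% ± 0.0687, 0.963% ± 0.0231 and 0.788% ± 0.0469 (n = 3 each). In all 3 regions the libraries of P1, P7 and P14 did not overlap. Relative to P1, the mean share left at P14 was 34.5% (cortex), 46.8% (hippocampus) and 55.0% (olfactory bulb). Because these are bulk libraries, fewer cells of a type that is rich in these transcripts and less of the RNA in each cell cannot be told apart. A share can also fall because reads of other genes rise. Between P7 and P14 the members' median log2 difference in normalized reads was small: -0.08 for hippocampus, -0.05 for olfactory bulb and 0.08 for cortex. The astrocyte-marker sum of cortex was 105612 to 131338 at P7 and 523907 to 580490 at P14. How much other genes contributed to the falling share was not tested.

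**Figure D1:**
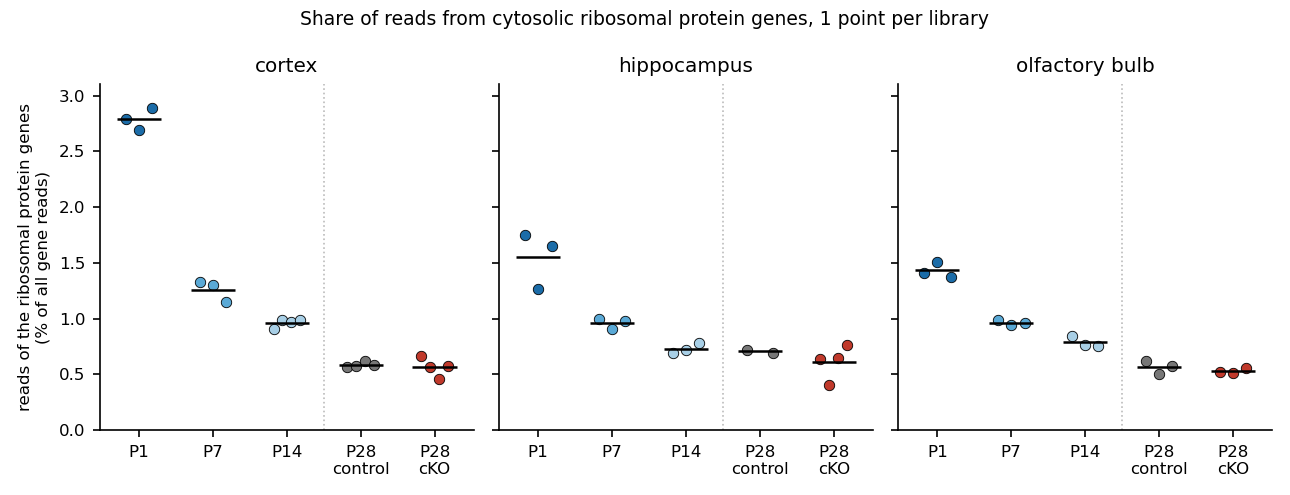
Percent of all gene reads that fell on the ribosomal protein genes, 1 point per library, for the 3 ages and the P28 genotypes of each region; bars are group means and the dotted line separates tables that were scaled separately. The points of P1, P7 and P14 form 3 separate levels in each region, from 2.69% to 2.89% at P1 in cortex down to 0.904% to 0.990% at P14, and the P28 control and cKO points overlap, with reads of Rn45s counted in the total.

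In cortex, nearly all members fell in the first postnatal week. Between P1 and P7, 75 of 77 were lower and 0 higher at an adjusted p under 0.05 (limma over 11822 genes, Benjamini-Hochberg), where 18.1% of all tested genes were lower and 15.6% higher. The members' median log2 difference was -1.26 and that of all tested genes -0.10. All 77 members lay below 0, from Rps15 at -1.84 to Rpl7l1 at -0.36. The 2 not called were Rpl7l1 and Rps4l. The neuron-marker sum moved in the same direction (1825 to 4605 at P7), with 5 of 12 neuron markers lower, and its part in the result was not tested. The sum of cell cycle markers was 1460 to 2026 at P1 and 1594 to 1946 at P7, and 0 of 9 were called in either direction. Their part in the result was not tested either.

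Between P7 and P14 the cortex members went both ways. Here 21 of 77 rose and 8 fell (limma, adjusted p under 0.05), where 18.6% of all tested genes were higher and 31.3% lower. The median was 0.08 among members and -0.19 among all genes. This split depended on the scaling and the test: it was 27 higher and 3 lower with TMM scaling, 32 and 3 with DESeq2, and 21 and 13 after quantile normalization. It also rested on single libraries, being 11 and 11 without P7 replicate 3 and 13 and 9 without P14 replicate 2. Across members the P14-to-P7 difference went with GC content (Spearman rho 0.53, n = 76), and the P7-to-P1 difference, which shares the P7 libraries, had a rho of -0.48; the members share these libraries, and the part of base composition was not tested. Over the same step 9 of 9 cell cycle genes fell, to sums of 279 to 423 at P14, and 9 of 12 neuron markers fell. Of the other cell types, 7 of 7 oligodendrocyte markers rose (median 3.804, sums of 862 to 1045 at P7 and 15334 to 26218 at P14), as did 9 of 10 microglia markers (median 1.59). Of 6 oligodendrocyte precursor markers, 4 fell and 0 rose (median -0.78). None of 8 endothelial markers was called, and the part of these lists in the members' split was not tested.

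Over the whole interval from P1 to P14, 75 of 77 members were lower in cortex and 0 higher, where 40.3% of all tested genes were lower and 24% higher. All 45 large-subunit members and 30 of the 32 small-subunit members were lower. The median log2 difference was -1.14, against -0.27 for all genes. With TMM scaling the 2 medians were -0.92 and -0.05, and after quantile normalization -1.25 and 0.03. The median member stood at 45.6% of its P1 mean, and 58 of 77 were below 50%. The 2 members without a call were the paralogs Rps27l and Rps4l.

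**Figure D2:**
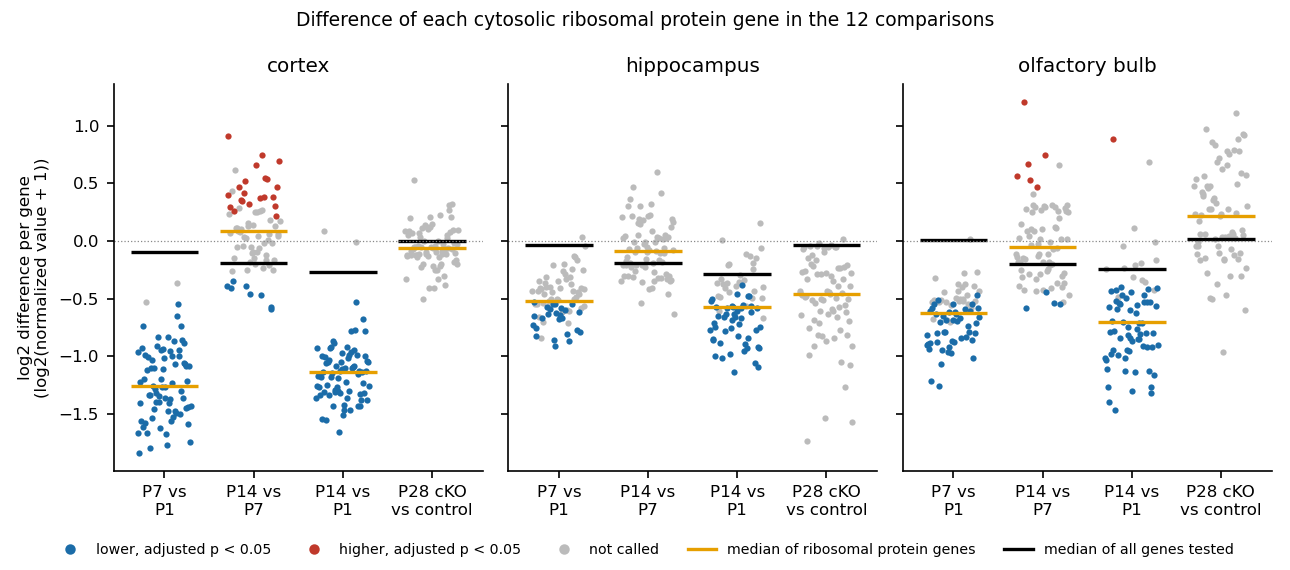
Log2 difference of each ribosomal protein gene in the 12 comparisons, 1 point per gene; blue points were lower and red points higher at an adjusted p under 0.05, grey points were not called, orange bars mark the members' median and black bars that of all tested genes. The points lie almost wholly below 0 for P7 against P1 and P14 against P1, straddle 0 for P14 against P7, and are all grey at P28.

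The small subunit held several of the members with large falls in cortex. Rps19, a small-subunit protein whose loss causes Diamond-Blackfan anaemia in humans, had 888, 655 and 776 normalized reads at P1, 395, 348 and 268 at P7, and 217, 269, 234 and 249 at P14. Every P1 library was above every later one, and P14 lay at or below the P7 range, overlapping it only at 269 against 268. P14 against P1 gave a log2 difference of -1.66 ± 0.14 (SE here and below; limma adjusted p = 2.7e-07). Rps15a, another small-subunit protein, went from 1681, 1495 and 1539 at P1 to 579, 637 and 610.4 at P7 and 508, 577, 531 and 584 at P14, a difference of -1.51 ± 0.09 (limma adjusted p = 5.5e-09). Its P1 values were clear of all later ones, and P7 and P14 met in the range of 579 to 584.

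Rpsa, the small-subunit protein also known as the laminin receptor, had 3412, 2732 and 3225 at P1, 1534, 1478 and 944 at P7, and 972, 1148, 1134 and 1242 at P14. P7 replicate 3 was the lowest library of all, so P7 and P14 overlapped, while P1 was clear of both (-1.47 ± 0.15, limma adjusted p = 1.7e-06 for P14 against P1). Rps6, the substrate of the S6 kinases, had 1453, 1143 and 1295 at P1, 628, 692 and 677 at P7, and 595, 637, 584 and 754 at P14. Its fall was of smaller size (-1.01 ± 0.11, limma adjusted p = 2.5e-06) and its P7 and P14 values overlapped.

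The stalk of the large subunit, which recruits the translation factors, is built from Rplp0 at its base and Rplp1 and Rplp2 at its arms. Its members differed in what they did after P7. Rplp0 had 2010, 1896 and 2176 at P1, 730.5, 682 and 516 at P7, and 599.6, 789, 646 and 736 at P14, with P7 and P14 overlapping and P1 far above both. P14 against P1 gave -1.55 ± 0.13 (limma adjusted p = 1.8e-07). Rplp1 had 1774, 1808 and 1919 at P1, 667, 665 and 576 at P7, and 948, 1141, 1037 and 1149.97 at P14. All 4 P14 libraries of Rplp1 were above all 3 P7 libraries and below P1. Its log2 differences were -0.78 ± 0.09 for P14 against P1 (limma adjusted p = 6e-06) and 0.75 ± 0.09 for P14 against P7 (limma adjusted p = 2.3e-05). Rplp2 was lower at P14 than at P1 (-1.31 ± 0.10, limma adjusted p = 6.5e-08). Like Rplp1, it was called higher at P14 than at P7, while Rplp0 was not called in that step. Counted per kilobase of exon over the 76 members with a length, Rplp1 was the most abundant in cortex at every one of the 3 ages, with 3674 normalized reads per kilobase at P1 and 2142 at P14, where the median member had 610 and 283.

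A few other cortex members went down by P7 and partly came back by P14. Rps15, at the decoding side of the small subunit, had 1023, 800.2 and 845 at P1, 283, 239.7 and 218 at P7, and 418, 480.5, 495 and 459.99 at P14. Its ages did not overlap, and the rise from P7 to P14 of 0.91 ± 0.12 (limma adjusted p = 3.2e-05) followed a difference of -1.84 ± 0.12 from P1 to P7 (limma adjusted p = 2.4e-07). Rpl36 had 596, 649.8 and 619.7 at P1, 213, 193 and 153 at P7, and 286, 370.4, 259 and 289 at P14, again with no overlap between ages. It rose from P7 to P14 by 0.69 ± 0.14 (limma adjusted p = 0.001). Rpl5, which carries the smallest ribosomal RNA into the large subunit, went on falling instead: it had 2687, 2479 and 2566 at P1, 1513, 1658 and 1452 at P7, and 965, 1110 and 962 with 1067 at P14. Its values for the 3 ages were in descending order with no overlap (P14 against P7, -0.59 ± 0.08, limma adjusted p = 7.5e-05). Rps24 fell in that step too (-0.57 ± 0.11, limma adjusted p = 0.00068). These examples also differ in GC content. It was 62.4% in Rps15 and 60.8% in Rpl36, which rose, against 42.7% in Rpl5 and 46.0% in Rps24, which fell. Whether their courses reflect the gene or its base composition was not tested.

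**Figure D3:**
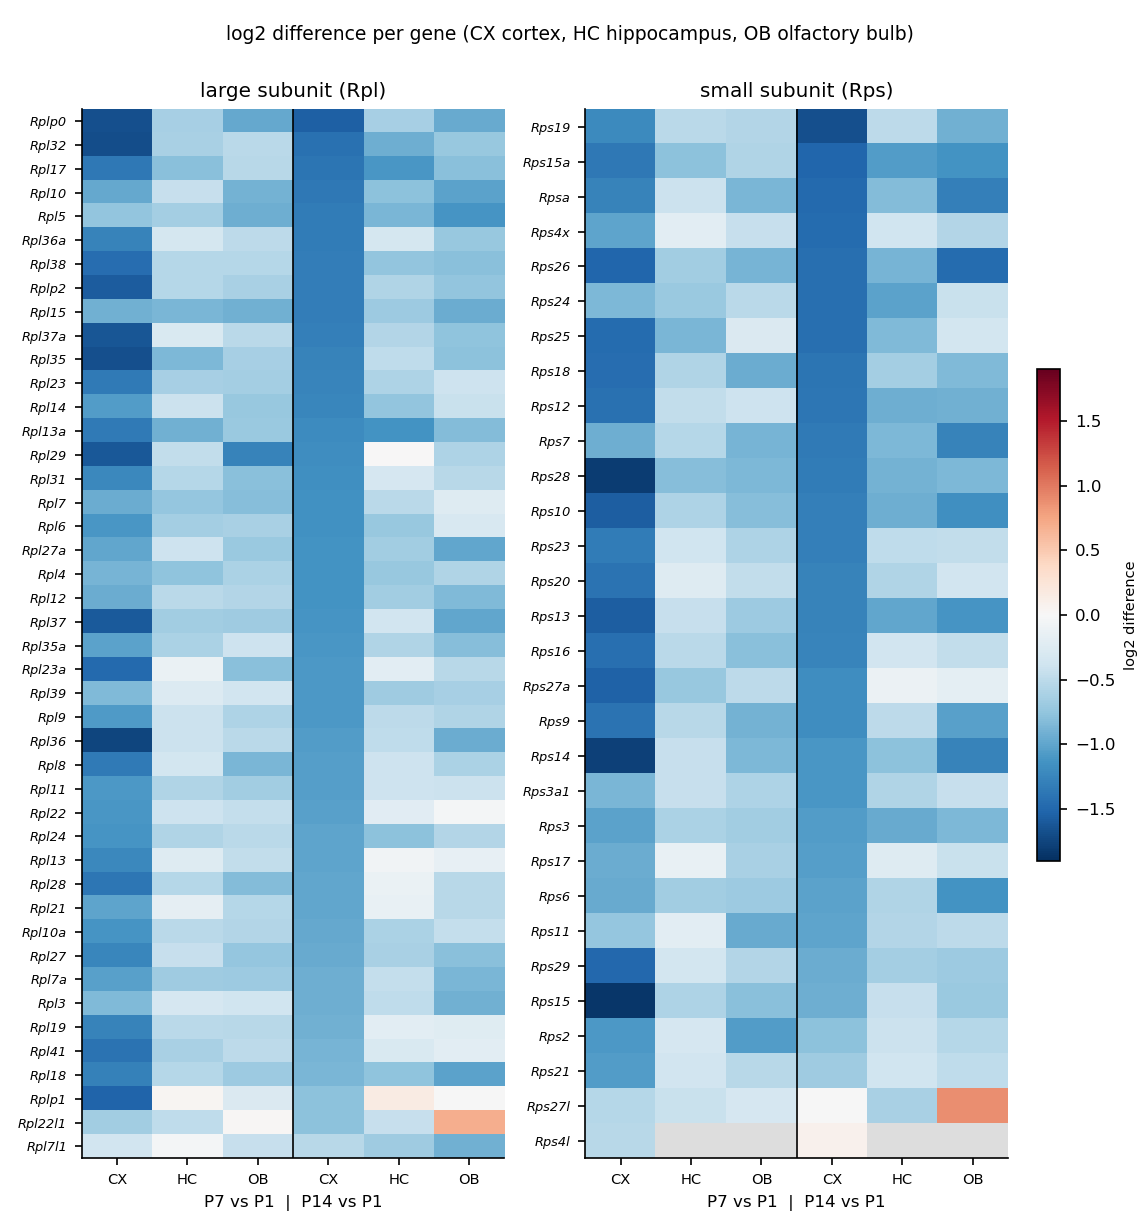
Log2 difference of each ribosomal protein gene for P7 against P1 and P14 against P1 in cortex, hippocampus and olfactory bulb, as a colour map with genes ordered by their cortex P14-to-P1 difference; grey means that the gene is not a member in that table, and a few members are not shown. The cortex columns are the darkest blue, with medians of -1.26 and -1.14, and the rows at the end of the order with the smallest differences are the paralogs Rps4l, Rps27l and Rpl7l1.

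In hippocampus members fell from P1 to P7, and none was called from P7 to P14. From P1 to P7, 25 of 76 members fell and 0 rose (limma over 11578 genes, adjusted p under 0.05), where 6.92% of all tested genes were lower and 11.2% higher. The members' median was -0.52 and that of all genes -0.03. This count rested on single libraries: it was 7 without P1 replicate 1, 10 without P1 replicate 3, 13 without P7 replicate 1, 9 without P7 replicate 2, and 41 without P1 replicate 2. DESeq2 called 38. The neuron-marker sum went from 6490 to 8472 at P1 to 1710 to 2733 at P7, with 3 of 12 markers lower and 1 higher. The cell cycle sum went from 2947 to 3010 at P1 to 1660 to 2658, with 1 of 10 genes lower. The part of both in the result was not tested. From P7 to P14, 0 of 76 were called in either direction, where 30.1% of all tested genes were, and 3 had an unadjusted limma p under 0.05, where 41.7% of all genes had one; DESeq2 called 2 and edgeR on recovered reads none. The lowest adjusted p in that step was 0.078, for Rps27a, at 0.60. From P1 to P14, 47 of 76 were lower and 0 higher, where 28.5% and 21% of all tested genes were; 25 were of the large and 22 of the small subunit. The members' median was -0.58 and that of all genes -0.29, with 41.0% of all tested genes below the members' median. That count was 27 without P1 replicate 1 and 31 without P1 replicate 3.

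Among the largest falls in hippocampus from P1 to P14 were those of Rpl13a, Rpl17, Rps15a and Rps24. Rpl13a, which can leave the ribosome to join a complex that silences inflammatory messages, had 350.4, 220.1 and 379.7 normalized reads at P1, 156, 163 and 170.3 at P7, and 117, 154 and 150.5 at P14. Its 3 ages did not overlap, though P1 replicate 2 lay well under the other P1 libraries (-1.14 ± 0.22, limma adjusted p = 0.0014). Rps15a had 991, 678 and 979 at P1, 525, 501 and 497 at P7, and 376, 368 and 523 at P14, with P1 again clear of the later ages (-1.06 ± 0.18, limma adjusted p = 0.00051). Rpl17, at the exit of the tunnel for the new protein chain, and Rps24 had differences of -1.10 ± 0.25 and -1.02 ± 0.23 (limma adjusted p = 0.0033 for each). Rplp1 did not move with these: it had 621, 423 and 563 at P1, 492.7, 505 and 641 at P7, and 671, 522 and 582 at P14, with all ages overlapping (0.15 ± 0.18, limma adjusted p = 0.49). Rps19, first in cortex, was not called in hippocampus (-0.49 ± 0.31, limma adjusted p = 0.21).

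In olfactory bulb, 47 of 76 members fell from P1 to P7 and 0 rose (limma over 11490 genes), where 2.98% of all tested genes were lower and 7.59% higher. The members' median was -0.62 and that of all genes 0.01. The count ran down to 20 when single libraries were left out (20 without P1 replicate 2, 24 without P1 replicate 1, 30 without P1 replicate 3, 24 without P7 replicate 2 and 31 without P7 replicate 1). In the same step 0 of 12 neuron markers were lower and 3 higher. Their sum nonetheless fell, from 15194 to 18587 at P1 to 9678 to 15046 at P7, with no overlap. Its part in the result was not tested. The cell cycle sum was 1921 to 2067 at P1 and 881 to 1473 at P7, with 1 of 9 genes lower. From P7 to P14, 4 fell and 6 rose, where 26.6% of all tested genes were lower and 20.4% higher; the split was 11 higher and 3 lower with TMM scaling and 4 higher and 13 lower after quantile normalization. It was 16 called in all without P14 replicate 1 and 16 without P14 replicate 2. From P1 to P14, 61 were lower and 1 higher, where 31.4% and 24.8% of all tested genes were. The lower ones were 36 large-subunit and 25 small-subunit members, and the median was -0.71, against -0.24 for all genes.

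Rps26, a small-subunit protein that touches messenger RNA ahead of the start codon, had the largest fall in olfactory bulb from P1 to P14. It had 757, 698 and 602 normalized reads at P1, 366, 337 and 411 at P7, and 213, 244 and 289 at P14. Its ages stepped down without overlap (-1.47 ± 0.16, limma adjusted p = 2.1e-05). Rpsa (-1.30 ± 0.18, limma adjusted p = 9.4e-05) and Rps7, which binds MDM2 when free of the ribosome (-1.27 ± 0.23, limma adjusted p = 0.00067) were among the other large falls.

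Of the 77 members, 42 were lower at P14 than at P1 in all 3 regions, 24 in 2 regions, 9 in 1 region and 2 in none. The 9 were lower in cortex alone, Rpl13, Rpl19, Rpl22, Rpl22l1, Rpl41, Rplp1, Rps21 and Rps27a among them; whether their differences differ between regions was not tested, since the tables were scaled separately. From P1 to P7, 19 members were lower in all 3 regions, among them Rplp0, Rplp2, Rpl5, Rps6, Rps15 and Rps26. The order of members by their P14-to-P1 difference was shared loosely between regions, with Spearman rho of 0.49 for cortex and hippocampus, 0.38 for cortex and olfactory bulb, and 0.55 for hippocampus and olfactory bulb (n = 76 members), against 0.78, 0.72 and 0.74 over all genes tested in both regions. For P7 against P1 the members' values were 0.19, 0.14 and 0.26. These are descriptions over genes from the same libraries, and the members' differences span a narrow range.

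Among the paralogs, Rps27l was the member that rose in olfactory bulb, and the others differed from gene to gene. Rps27l, a p53-inducible relative of Rps27, had 106, 90.7 and 89.0 normalized reads in cortex at P1, 61.7, 64.9 and 67.5 at P7, and 76.0, 104, 122 and 82.0 at P14. P7 lay below both other ages, which overlapped (P7 against P1, -0.55 ± 0.19, limma adjusted p = 0.041; P14 against P7, 0.54 ± 0.18, limma adjusted p = 0.024; P14 against P1, -0.01 ± 0.18, limma adjusted p = 0.97, turning to 0.21 with TMM scaling). In olfactory bulb Rps27l had 36.9, 33.0 and 31.4 at P1, 25.2, 25.02 and 30.3 at P7, and 61.6, 73.1 and 55.5 at P14, where all 3 P14 libraries were the highest. It was the 1 member higher at P14 than at P1 there (0.88 ± 0.28, limma adjusted p = 0.018), and rose by 1.21 ± 0.28 from P7 (limma adjusted p = 0.0043). In hippocampus Rps27l had 79.4, 45.0 and 74.3 at P1, 50.1, 41.9 and 52.0 at P7, and 30.1, 37.5 and 64.5 at P14, with every age overlapping (-0.61 ± 0.37 for P14 against P1, limma adjusted p = 0.20). Rps27 itself was listed with means of at most 0.359 in every table.

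Rpl22l1, the paralog that can stand in for Rpl22, had 356, 243 and 338 in cortex at P1, 197, 213 and 178 at P7, and 202, 160 and 204 with 158 at P14. P1 was above both later ages, which overlapped (P14 against P1, -0.78 ± 0.15, limma adjusted p = 0.00054), and Rpl22 fell there too (-1.03). In olfactory bulb Rpl22l1 had 78.9, 107.9 and 87.7 at P1, 104, 94.4 and 78.9 at P7, and 237, 142 and 93.0 at P14. Its 3 P14 libraries were widely spread and reached into the P1 range (0.68 ± 0.31, limma adjusted p = 0.08), and Rpl22 was at -0.04 (limma adjusted p = 0.89). In hippocampus neither was called: Rpl22l1 stood at -0.43 (limma adjusted p = 0.39) and Rpl22 at -0.21 (limma adjusted p = 0.54), and both turned above 0 without P14 replicate 2. Rpl7l1, which acts in ribosome assembly and is related to Rpl7, had 78.4, 65.0 and 67.2 in cortex at P1, 57.1, 62.6 and 44.4 at P7, and 55.6, 34.6, 50.8 and 55.6 at P14 (-0.53 ± 0.21, limma adjusted p = 0.044). Its P7 and P14 values overlapped and both lay under P1.

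Among the 76 members with an exon length here, which leave out Rps4l, Rpl7l1 was the lowest per kilobase in all 15 groups, at 20.1 normalized reads per kilobase in cortex at P1 where Rpl7 had 578. Rpl22l1 had 157 and Rpl22 272.5 there, and Rps27l had 117. By P14 Rps27l held 118 per kilobase in cortex, where Rpl22l1 had 91.01 and Rpl22 134. In cortex P1 these 76 spanned 20.1 (Rpl7l1) to 3674 (Rplp1) normalized reads per kilobase. Rps4l, related to the X-linked Rps4x, was close to the minimum mean in cortex, with 12.5, 12.3 and 8.5 at P1, 10.96, 5.4 and 6.3 at P7, and 12.1, 9.4, 10.4 and 15.6 at P14 (0.09 ± 0.39 for P14 against P1, limma adjusted p = 0.86). Rps4x fell (-1.47, limma adjusted p = 3e-08).

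**Figure D4:**
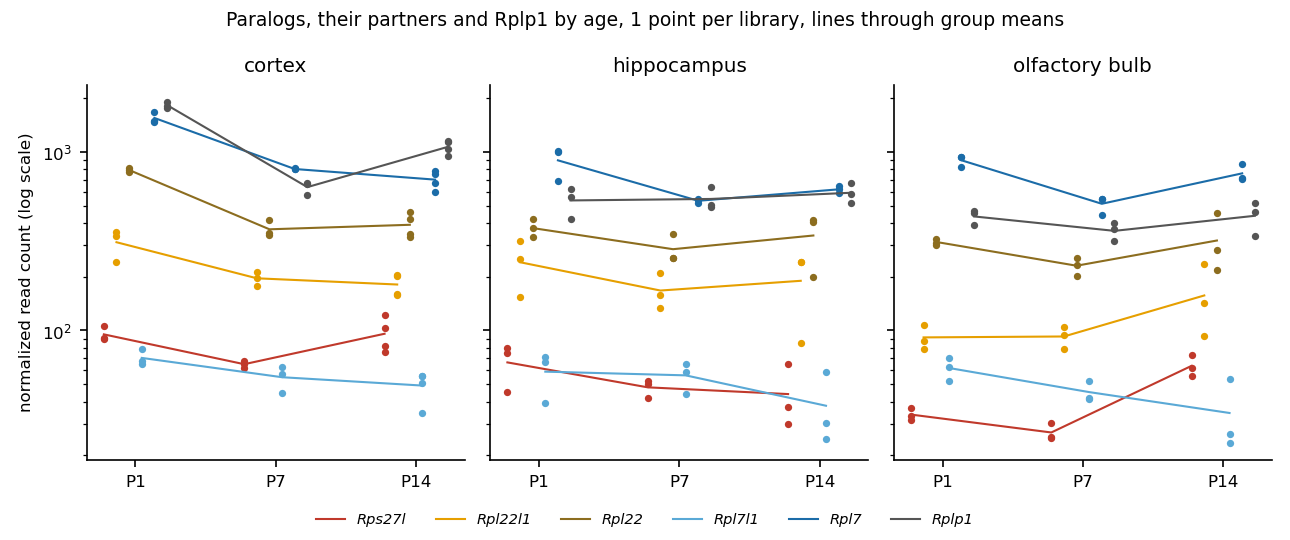
Normalized read counts on a log axis by age for Rps27l, Rpl22l1, Rpl22, Rpl7l1, Rpl7 and Rplp1 in the 3 regions, 1 point per library with group means. Rps27l in olfactory bulb is highest at P14 (55.5 to 73.1, against 31.4 to 36.9 at P1), and Rplp1 in cortex dips at P7 (576 to 667) between P1 and P14.

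The other 7 symbols of the rule fell outside the minimum in every table: Rpl10l and Rpl26 at 0 in all 48 libraries, Rpl30, Rpl34, Rpl39l and Rps27 with means under 1, and Rpl3l, whose single highest value was 25.5, in olfactory bulb at P28. Rpl26, Rpl30, Rpl34 and Rps27 are standard parts of every ribosome, so a listing at or near 0 is no measure of their expression. Many ribosomal protein genes have processed pseudogene copies that share reads with them: of the 50-base stretches of a member's transcript, a median of 42.8% occurred in other genes' transcripts (0% to 86.7%, n = 76), and Rps27l shared 13.7%. For the 7 symbols outside the minimum the median was 7.598%, and for Rps27 the value was 63.1%. How reads shared between copies were counted is not given in the sources used here, so absolute levels of members with many copies are uncertain.

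Several groups of genes that work with the ribosomal proteins were lower in cortex as well. From P1 to P14, 4 of 4 other ribosomal components were lower, among them Gnb2l1 (the scaffold protein RACK1, -1.61), the ubiquitin-like fusion Fau (-0.76) and Rpl36al (-0.36). Of 17 genes for elongation factors and other TOP messages, 16 were lower and 0 higher, including Hnrnpa1 (-2.52), Eif4b (-1.34) and the elongation factor Eef1a1 (-1.26), with a median of -1.14. Of 32 tested ribosome biogenesis genes, 20 were lower and 1 higher (Tsr1), with Nop16 at -1.89, Nop56 at -1.75 and the ribosomal RNA methyltransferase Fbl at -1.72. Among 15 MYC and mTORC1 regulators 6 were lower and 0 higher, led by Mycn (-3.40) and Mycl (-1.79). The 77 mitochondrial ribosomal protein genes were taken by symbol (Mrpl or Mrps and a number), a naming for the separate ribosome of mitochondria. They were more often higher than lower: 22 were higher and 3 lower, with a median of 0.24. Mrpl4 stood at 1.12, while Mrpl52 was lower at -0.99. All these counts read against 40.3% lower and 24% higher over all genes. The count of regulators that were lower is thus at the background. The count of mitochondrial ribosomal proteins that were higher is near it, and the count that were lower is under it.

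In hippocampus 11 of 17 elongation and TOP genes were lower at P14 than at P1 and 1 higher (Eef1d), 12 of 32 biogenesis genes were lower and 0 higher, and 18 of 77 mitochondrial ribosomal proteins were higher and 1 lower. Of the 4 other components only Gnb2l1 was called there (-1.26), and of 14 regulators 3 were lower, Mycn at -5.52 among them, and 2 higher. Over all genes 28.5% were lower and 21% higher, so the lower regulators and other components there are under the background and the higher mitochondrial ribosomal proteins near it. In olfactory bulb 13 of 17 elongation and TOP genes, 14 of 32 biogenesis genes and 3 of 4 other components were lower (Nop56 at -2.78, Fau at -1.34), and 6 of 14 regulators, with Mycl at -3.79 and Myc at -1.94. The mitochondrial ribosomal proteins there were 11 higher and 8 lower, with a median of 0.04. The background there was 31.4% lower and 24.8% higher. Cell cycle genes were lower from P1 to P14 in cortex (9 of 9 tested), hippocampus (9 of 10) and olfactory bulb (4 of 9), and neuron markers in 10, 9 and 9 of 12; their part in the members' differences was not tested. Oligodendrocyte markers were higher in 6 of 7, 4 of 4 and 5 of 5, and microglia markers in 9 of 10, 5 of 6 and 4 of 5. Endothelial markers were higher in 1 of 8 in cortex and 7 of 7 in olfactory bulb, and lower in 2 of 6 in hippocampus. The part of these lists was not tested either.

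At P28, no ribosomal protein gene passed the test between Gabbr1 cKO and control in any region. The targeted gene itself passed in cortex alone: Gabbr1 stood at -1.84 in hippocampus (limma adjusted p = 0.94) and -1.48 in olfactory bulb (limma adjusted p = 0.88). In cortex 0 of 76 members had an adjusted p under 0.05 (limma), where 0.00982% of all tested genes did, the 1 gene being Gabbr1 (-3.45, limma adjusted p = 4.4e-05). None of the members had an unadjusted p under 0.05, against 2.17% of all genes. None was lower in every cKO library (1.03% of all genes) or higher in every one (0.864%), and edgeR and DESeq2 on recovered reads called none. The members held 0.587% ± 0.0249 (SD, n = 4) of gene reads in controls and 0.566% ± 0.0839 (n = 4) in cKO, and their median difference was -0.06. With the round of deposit as a covariate it was -0.11, and 0 members were called. The lowest unadjusted p-values were those of Rpl22 (-0.51 ± 0.28), Rps20 (-0.38 ± 0.23) and Rpl7 (-0.33 ± 0.20), each with a limma adjusted p of 1.0. Rpl22 had 262, 312, 189 and 169 in controls and 265, 141, 137 and 125 in cKO, so that 3 cKO libraries lay below every control and the fourth stood among the highest controls.

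In hippocampus at P28, 0 of 76 members passed the adjusted test, where 0% of all tested genes did; 2 had an unadjusted p under 0.05 (2.54% of all genes), and edgeR and DESeq2 called none. The members' median was -0.46 against -0.04 for all genes, and 75 of 76 lay below 0. In 18 of 76 members every cKO library was below both controls, where 7.92% of all genes had that order, and in 0 every cKO library was above (7.08%). Much of the size of that median came from 1 library: without cKO replicate 2 it was -0.12, with 60 of 76 below 0, 21 members with every cKO library lower (11.5% of all genes), and the share of reads in cKO at 96.6% of control in place of 86.8%. With Rn45s left out of the total, the share was 1.15% and 1.12% in controls and 0.988%, 0.409%, 1.05% and 1.07% in cKO. On that total every cKO library lay below both controls, cKO replicate 2 farthest, and the ratio of means, cKO to control, was 77.5%. Some other lists also did not overlap between the groups, an order that 7.92% and 7.08% of all genes met in the 2 directions. The sums of astrocyte, neuron, oligodendrocyte and cell cycle markers did overlap. So did those of other ribosomal components and of MYC and mTORC1 regulators. The sums below include cKO replicate 2. The summed level of elongation and TOP genes was 16820 to 18706 in controls and 9977 to 16527 in cKO, and that of biogenesis genes 5363 to 5574 and 4254 to 5115. Mitochondrial ribosomal proteins summed to 5792 to 6169 and 4053 to 5777, and microglia markers to 55.2 to 65.7 and 124 to 721. The part of these lists in the members' differences was not tested. The members with the lowest p were Rpl7l1, Rps12 and Rps27a. Rpl7l1 had 105 and 111 in controls and 32.9, 13.0, 67.9 and 53.9 in cKO, with no overlap. Its difference was -1.57 ± 0.65 (limma adjusted p = 0.94), and -1.11 ± 0.39 without cKO replicate 2. Rps12, a small-subunit protein, had 253 and 298 in controls and 172, 117, 216 and 135 in cKO, again with no overlap (-0.81 ± 0.34, limma adjusted p = 0.94).

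In olfactory bulb at P28, 0 of 76 members passed, where 0% of all tested genes did, and edgeR and DESeq2 called none. One member had an unadjusted p under 0.05 (3.02% of all genes), 1 was lower in every cKO library (Rpl23; 4.71% of all genes) and 1 higher in every one (Rps27l; 5.3%). The median was 0.22 against 0.02 for all genes, with 52 of 76 above 0. Without control replicate 2 it was -0.09, with 24 of 76 above 0, so that library decided the direction. Rpl13, a large-subunit protein, had 711, 858 and 530 in controls and 347, 412 and 644 in cKO, with the groups overlapping (-0.60 ± 0.29, limma adjusted p = 0.88). Rpl23 had 386, 383 and 295 in controls and 248, 259 and 241 in cKO, all lower (-0.50 ± 0.24, limma adjusted p = 0.88). Neuron-marker sums were 1436 to 4325 in controls and 1026 to 2104 in cKO, and their part was not tested. The other translation lists had 0 genes called at P28 in all 3 regions (limma).

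In the pair of libraries with little Rn45s, most members stood at the low or high end of their table, as did most genes. In hippocampus P28 cKO replicate 2, 59 of 76 members were the lowest of the 6 libraries of their table, 7 were the highest and 10 lay within. In olfactory bulb P28 control replicate 2 the counts were 55, 7 and 14. Over all tested genes, 36.3% were the lowest and 34.0% the highest in the hippocampal library, and 34.1% and 34.1% in the olfactory bulb library, against 77.6% and 9.21%, then 72.4% and 9.21%, of members. Rpl36 had 1.44 in the hippocampal library, against 178 to 221 in the other 5. Rpl8 had 10.1 there against 266 to 407, and Rplp2 21.7 against 209 to 286. In the olfactory bulb library Rps19 had 11.9 against 97.6 to 142, and Rplp1 47.7 against 304 to 383. Other members were at their highest in the same libraries, such as Rpl4 in hippocampus (2135 against 1279 to 1626).

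The same members tended to be low in both libraries, which come from different regions and opposite genotypes. Members more than 1 log2 unit below the mean of the other 5 libraries numbered 44 in the hippocampal library and 31 in the olfactory bulb library, and 26 were shared (59.1% of the first and 83.9% of the second). Among all tested genes 27.0% and 21.4% were that low, and 962 of those tested in both tables were low in both libraries (36.2% and 41.2%). Over the 76 members the deviations in the 2 libraries had a Spearman rho of 0.70, against 0.24 over 10734 genes tested in both tables, and their rho with GC content was -0.47 and -0.25. Among the shared low members were Rpl36, Rpl8, Rplp1, Rplp2, Rps14, Rps15, Rps19 and Rpsa. What set these libraries apart was not tested.

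**Figure D5:**
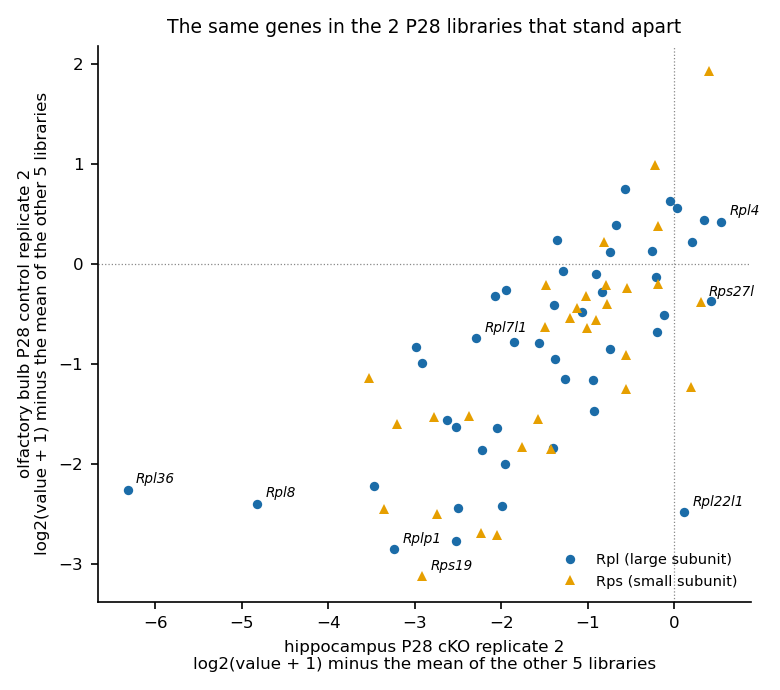
For each ribosomal protein gene, log2(value + 1) minus the mean of the other 5 libraries of its table, in hippocampus P28 cKO replicate 2 (one axis) and olfactory bulb P28 control replicate 2 (the other axis). Most points lie below 0 on both axes and rise together (Spearman rho 0.70, n = 76), and the few points above 0 include Rpl4.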

How the data were processed

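Very small inputs of total RNA were made into libraries with the Trio RNA-seq kit, per the labels' protocols. Per the submitters' processing notes, reads were handled with FastQC, MultiQC, STAR 2.5.0a and DESeq2 1.20.0 on mm10; the counting program, annotation and strand setting are not given in the sources used here. Each deposited value is a normalized signal per gene made by the authors, equal to a read count divided by 1 factor per library: whole reads were recovered for 100% of values in 48 columns (tolerance 0.01 reads), a weak check for olfactory bulb P28 cKO replicate 2, whose step is close to 1 read. A set of 27 symbols turned into dates in 5 tables was restored. Groups came from the labels, and replicate numbers only name libraries.

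Values were compared as log2(value + 1) with limma 3.58.1 (mean-variance trend) in R 4.3.3, over genes with a mean of at least 10, within a table, adjusted by the Benjamini-Hochberg method over all genes tested; a fold understates the change of low genes. The 3 ages of a region shared 1 fit. Shares of reads were not tested. Alternatives were a pseudocount of 8, a minimum mean of 100, no filter, quantile normalization, TMM scaling, limma with no trend, edgeR 4.0.16 and DESeq2 1.42.0 on recovered reads, the deposit round as a covariate in cortex at P28, and leaving out each library; edgeR with Rn45s removed and reads thinned to 1 depth per table, and leaving libraries out of the shares, were chosen after seeing the data. On simulated data with 200 changed genes the procedure recovered 94.7% (olfactory bulb P28) to 100% (cortex P7 against P1) of 4-fold changes. For 2-fold changes it recovered 43.4% (hippocampus P28) to 56.6% (cortex P7 against P1). The simulated counts were drawn with the same fixed spread setting for every gene and library, unlike the real libraries. These shares are therefore no measure of what the real comparisons could detect, at P28 above all. Lengths, GC content and shared stretches came from GENCODE release M21.

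The members and gene lists were chosen with earlier results of these data known. Named members are the 5 largest rises and falls among called members for P14 against P1, the paralogs with their partners, Rps6, Rpsa and the stalk proteins, and at P28 the 3 with the lowest p; Rps15, Rpl36, Rpl5, Rpl23 and the members named in the 2 libraries that stood apart were picked after their values were seen, as were examples from the lists. A few genes covered by this rule are not reported here.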

Additional observations from a re-analysis of the deposited data

Results flagged for a closer look

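In groups of 4 to 10 libraries, 1 library lay far outside the rest for 2 of the 30 groups of values examined for the named members; chance gives about 1 in 20 (5%). Rpl10, a large-subunit protein at the catalytic core, had 627 in cortex P14 replicate 1, against 722 to 728 normalized reads in the other 3 libraries. Rpl22 had 265 in cortex P28 cKO replicate 1, against 125 to 141 in the other cKO libraries. Groups of 3 libraries, which include most of the developmental groups, were not examined this way.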

How the results depend on the processing

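The falls from P1 kept their direction in every alternative run, for the members' median in all 3 regions. Of the counts of called members under an alternative, 153 were within 1.5 times the reported count and 32 were not; of the values for named members, 907 kept their direction and call, 27 changed sign, 39 lost a call and 6 gained one.

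Without the trend limma called 17 members for cortex P14 against P7, 8 for hippocampus P7 against P1, 31 for hippocampus P14 against P1, 21 for olfactory bulb P7 against P1 and 6 for olfactory bulb P14 against P7. Hippocampus P7 against P1 gave 38 at a minimum mean of 100 and 38 with DESeq2. Hippocampus P14 against P7 gave 8 after quantile normalization, 2 with DESeq2 and 2 on thinned reads. Olfactory bulb P14 against P7 gave 17 after quantile normalization and 16 with DESeq2, and P14 against P1 gave 41 on thinned reads. Leaving out single libraries gave 7 to 41 for hippocampus P7 against P1, 0 to 2 for P14 against P7 and 27 to 58 for P14 against P1, and 20 to 44, 6 to 16 and 48 to 62 in olfactory bulb; in cortex the ranges were 74 to 74, 22 to 24 and 74 to 75. With Rn45s left out of the total, the share of reads in olfactory bulb was 50.4% of P1 at P14, and 107% of control in P28 cKO. With Rn45s counted, the P28 ratio was 94.0%, and 89.1% without control replicate 2. The 107% rests on that library. Without Rn45s it had a share of 0.505%, against 0.936% and 0.801% in the other controls and 0.789% to 0.815% in cKO.

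Medians that changed sign were those of cortex P14 against P7 (-0.0028 without P7 replicate 3, up to 0.17 without other libraries), olfactory bulb P14 against P7 (0.042 with TMM scaling, 0.044 with edgeR, 0.017 with DESeq2, 0.030 on thinned reads), cortex P28 (0.0062 without control replicate 2, 0.050 without cKO replicate 3, down to -0.18 without cKO replicate 1) and olfactory bulb P28 (-0.085 without control replicate 2, up to 0.39 without control replicate 1). Among named members with no call, P14 against P1 changed sign for Rps27l in cortex (TMM 0.21, quantile 0.27, edgeR 0.23, DESeq2 0.25, thinned 0.25, single libraries left out -0.13 to 0.093), Rps4l in cortex (-0.082 to 0.18 with single libraries left out), Rplp1 in hippocampus (-0.067 after quantile normalization, -0.0074 to 0.27 with libraries left out), Rpl22 in hippocampus (-0.39 to 0.14) and Rpl22l1 in hippocampus (-0.72 to 0.069). In olfactory bulb they were Rpl22 (TMM 0.036, edgeR 0.11, DESeq2 0.11, thinned 0.12, -0.33 to 0.20 with a library left out) and Rplp1 (TMM 0.072, edgeR 0.093, DESeq2 0.098, thinned 0.089, up to 0.17 with a library left out). The cause of these shifts was not tested.

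No paired analysis was possible because the labels carry no replicate numbers, and those used here only name libraries. Depth limits the low members: at 1773226 gene reads, the smallest library, Rps27l and Rpl7l1 rest on few reads.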
